A study of Mus musculus with 6 samples.

Results

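The alternative activation genes described here are 10 genes that mouse macrophages are known to raise, or to need, when interleukin 4 (IL-4) or interleukin 13 (IL-13) acts on them: Arg1, Chil3, Chil4, Retnla, Mgl2, Clec10a, Il4ra, Pdcd1lg2, Egr2 and Stat6. They were matched by symbol in a table of estimated counts that lists 54648 symbols, and all 10 were found. Of these, 9 were among the 15608 genes with enough counts to be tested, and Chil4 was not.

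Peritoneal cells of 3 wildtype (WT) and 3 FOXO3 knockout (FOXO3 KO) mice of the C57BL/6 strain, 6 to 8 weeks old and on a standard chow diet, were profiled by RNA-seq. Both genotypes had received 3% thioglycollate into the abdomen 4 days before collection, so neither group was unstimulated, and the methods name no IL-4 or IL-13 treatment. This irritant recruits blood monocytes, which become macrophages in the cavity. The cells were pelleted without a stated sort, mice of both sexes were used, and the knockout was made in the whole animal rather than in macrophages alone. In such bulk samples, fewer cells of a type and less RNA per cell cannot be told apart. The labels give 3 numbered samples per genotype and no more, so that p-values measure the spread between these samples.

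In the IL-4 pathway, the cytokine binds a receptor whose signalling chain is encoded by Il4ra, Janus kinases on the receptor phosphorylate the transcription factor STAT6, and STAT6 enters the nucleus and activates its targets. Among the known targets in mouse macrophages are the arginine-consuming enzyme arginase 1, the chitinase-like and resistin-like secreted proteins, galactose-type lectins and the checkpoint ligand PD-L2. In the peritoneal cavity this program is known from worm infection and allergy, and FOXO3 is a transcription factor that growth factor signalling keeps out of the nucleus.

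Values are CPM, counts scaled to a common library size, with that size adjusted by the trimmed mean of M values (TMM), and are listed in the order of replicates 1, 2 and 3. Library totals were between 28083572 and 36424331 counts, so that 3 counts, taken as the floor of detection, corresponded to between 0.0831 and 0.109 CPM, which covers counting error only. Fold changes are FOXO3 KO over WT, with p-values of edgeR's quasi-likelihood test adjusted by Benjamini-Hochberg over all 15608 genes (FDR). Calls required an FDR under 0.05 together with a change of more than 1.5-fold.

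WT 3 and FOXO3 KO 2 bear on every value. Foxo3 was at 117, 107 and 73.1 CPM in WT and at 4.71, 104 and 4.29 CPM in FOXO3 KO, so that the library labelled FOXO3 KO 2 held Foxo3 at the WT level. WT 3 stood apart from the other 5 libraries, with a Pearson r over genes of 0.929 to 0.956 against them, while the other pairs gave 0.986 to 0.994. The summed level of 8 markers of resident peritoneal macrophages was 4817 CPM in WT 3 and between 631 and 1240 CPM in the others, and that of 8 B cell markers was 5798 CPM in WT 3 and between 365 and 1524 CPM in the others. Summed levels of 12 general macrophage markers were between 15109 and 19857 CPM in all 6 libraries, of which Lyz2 alone made up 7746 to 11429 CPM. WT 3 was the lowest or the highest library for 12 of these 12 markers, as for 74.7% of all tested genes. It was the lowest for some, such as Cd68, and the highest for others, such as C1qa. WT 3 and FOXO3 KO 3 were the libraries with Xist, at 31162 and 37681 counts, against 2 to 5 counts in the others. Fold changes are therefore also given without WT 3 and without FOXO3 KO 2.

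None of the 9 tested genes was called different between FOXO3 KO and WT. The same test called 0 of all 15608 genes (0%), and the smallest FDR of any gene was 0.714. Foxo3 itself was thus not called, with a log2 fold change of -1.40 ± 1.22 (edgeR FDR = 0.859). For Foxo3 it was -1.57 without WT 3 (edgeR FDR = 0.833) and -4.46 ± 0.29 without FOXO3 KO 2 (edgeR FDR = 0.105). Only without both libraries was Foxo3 called by this test, at -4.64 ± 0.13 (edgeR FDR = 0.00182). At an unadjusted p under 0.05, 0 of the 9 were higher in FOXO3 KO, where 4.04% of all tested genes were, and 0 were lower, where 1.65% of all tested genes were. With other tools over the same 6 libraries, edgeR's likelihood ratio test, DESeq2 and limma-voom called 0 of the alternative activation genes, and 109, 167 and 0 of all genes. Their median log2 fold change was 0.02, beside -0.01 over all tested genes, with 5 above 0 and 4 below.

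**Figure D1:**
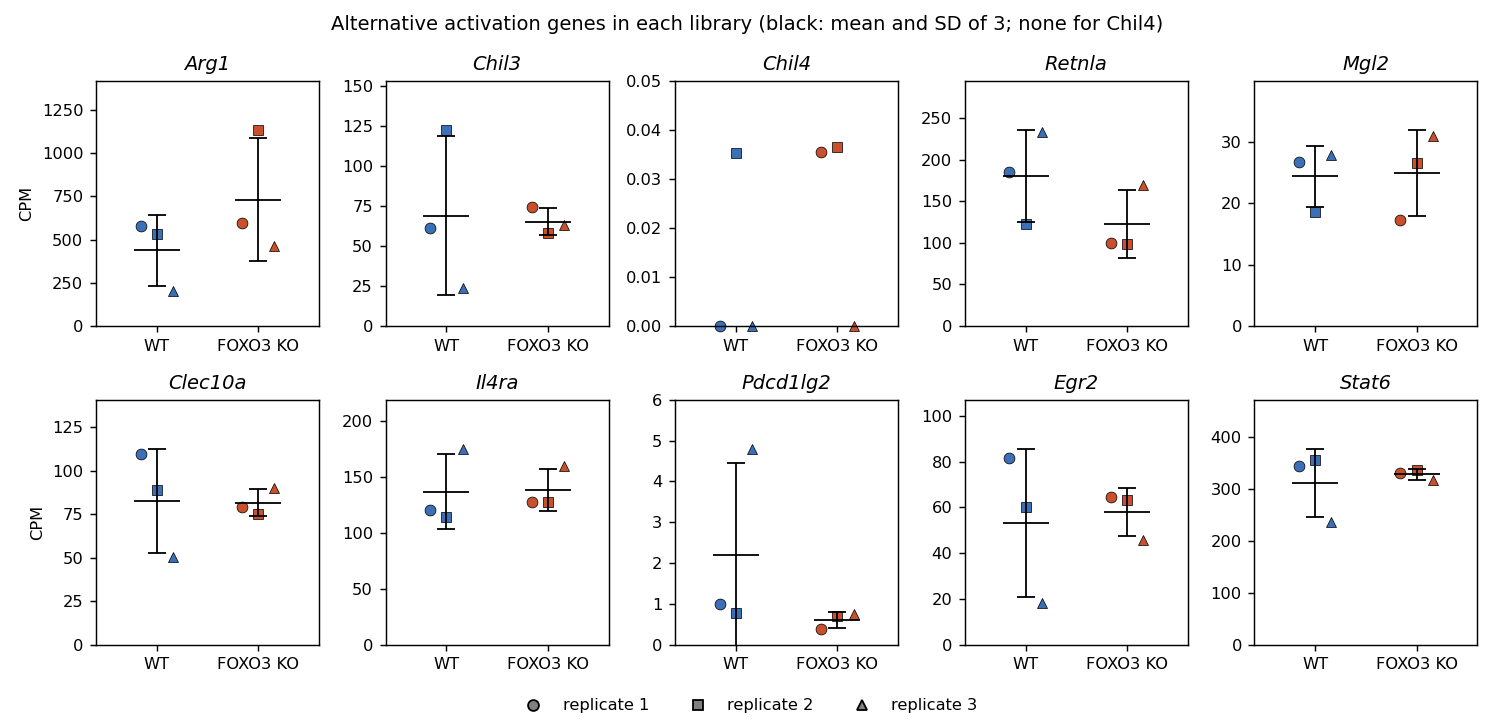
Level in CPM (y axis, linear, a scale for each gene) of the 10 genes in each WT and FOXO3 KO library, with the mean and SD of 3 libraries in black, except for Chil4; the lower SD bar of Pdcd1lg2 in WT reaches below 0 and is cut at the axis. WT 3 (blue triangles) is the lowest library for Arg1, Chil3, Clec10a, Egr2 and Stat6 and the highest for Retnla, Il4ra and Pdcd1lg2.

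Per kilobase of exon, the mean level over the 6 libraries ran from Arg1 at 396 CPM per kb through Retnla at 253, Stat6 at 84.9, Chil3 at 43.6, Clec10a at 32.9, Il4ra at 26.2, Egr2 at 17.5 and Mgl2 at 14.2 to Pdcd1lg2 at 0.715 CPM per kb. The ranges over libraries separated only between Retnla and Stat6 and between Mgl2 and Pdcd1lg2, and all other neighbours in this order overlapped. Compared within each library, Stat6 was above Chil3 in all 6, while the other overlapping neighbours changed order in some library. Retnla was at 165 CPM per kb or more in each library and Stat6 at 94.2 or less, and Mgl2 was at 9.98 or more and Pdcd1lg2 at 2.45 or less. Chil4 stood below this order, at 0 to 0.0237 CPM per kb.

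**Figure D2:**
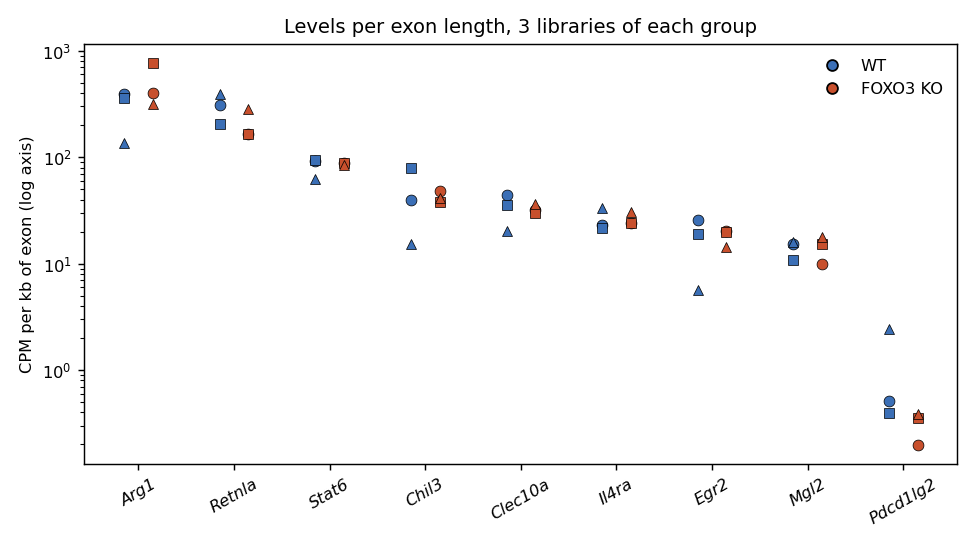
CPM per kilobase of exon (y axis, log scale) of the 9 tested genes in order of their mean, with 3 libraries of WT in blue and 3 of FOXO3 KO in red (circles, squares and triangles for replicates 1, 2 and 3). Arg1 and Retnla lie at the top, and Pdcd1lg2 lies at or below 2.45 in each library.

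The receptor chain and the transcription factor of the pathway varied least of the 9 tested genes, with the highest library at 1.53 times the lowest for Il4ra and 1.503 times for Stat6. Il4ra (chr7:125552120-125579474, plus strand, GRCm38), which encodes the chain shared by the IL-4 and IL-13 receptors, was at 120, 114 and 175 CPM in WT and at 127, 128 and 160 CPM in FOXO3 KO. Both groups had their highest value in replicate 3, in the libraries with Xist, and the groups overlapped. The log2 fold change was 0.02 ± 0.20 (SE, n = 3 per group; edgeR quasi-likelihood FDR = 0.987), with a 95% interval of the fold change from 0.723 to 1.42. It was 0.25 without WT 3 and 0.07 without FOXO3 KO 2.

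Stat6 (chr10:127642986-127660957, plus strand), the factor that carries the signal to the nucleus, was at 346, 355 and 236 CPM in WT and at 332, 337 and 317 CPM in FOXO3 KO. The 3 FOXO3 KO libraries lay close together, between WT 3 and the other 2 WT libraries. Between the groups, the log2 fold change was 0.07 ± 0.18 (edgeR FDR = 0.935), and the interval of the fold change was 0.776 to 1.42. Without WT 3 it was -0.08, and without FOXO3 KO 2 it was 0.05. For Stat6 and Il4ra, the intervals leave out a 1.5-fold change in either direction, and with FOXO3 KO 2 left out they widened to 0.688 to 1.57 and 0.687 to 1.61.

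Egr2 (chr10:67535475-67542188, plus strand) encodes an early growth response factor that IL-4 induces in macrophages downstream of STAT6. It was at 81.8, 60.2 and 18.0 CPM in WT and at 64.8, 63.2 and 45.7 CPM in FOXO3 KO. WT 3 was at 0.253 times the mean of WT 1 and WT 2, and all FOXO3 KO values lay inside the WT range. Its log2 fold change was 0.12 ± 0.51 (edgeR FDR = 0.966), turned to -0.29 without WT 3, and was 0.05 without FOXO3 KO 2. The other Egr factors were lower per library, with Egr1 at 9.17 to 17.5 CPM and Egr3 at 2.26 to 11.4 CPM, and their log2 fold changes were 0.29 ± 0.22 and -0.52 ± 0.58 (edgeR FDR = 0.852 and 0.876). Without WT 3 they were 0.39 and 0.22, so that Egr3 changed sign, and without FOXO3 KO 2 they were 0.17 and -0.59. Nab1, an Egr corepressor, was above all WT libraries in the 3 FOXO3 KO libraries, as were 7% of all tested genes. Its log2 fold change of 0.24 ± 0.11 was not called (edgeR FDR = 0.839) and was 0.24 without WT 3 and 0.27 without FOXO3 KO 2.

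Arg1 (chr10:24915221-24927484, minus strand) encodes arginase 1, which splits arginine into ornithine and urea and so competes with nitric oxide synthase for it. It was at 581, 531 and 200 CPM in WT and at 596, 1134 and 464 CPM in FOXO3 KO. The lowest value was that of WT 3 and the highest that of the library labelled FOXO3 KO 2, and the remaining 4 libraries lay between 464 and 596 CPM with the groups interleaved. Over all 6 libraries, the log2 fold change was 0.74 ± 0.50 (edgeR FDR = 0.844), with a 95% interval of the fold change from 0.723 to 3.87. It was 0.40 without WT 3, 0.28 without FOXO3 KO 2, and -0.07 without both. Arg1 was the only one of the 9 genes that was highest in FOXO3 KO 2, which 10.9% of all tested genes were.

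Of 10 genes listed for arginine uptake and use, Arg1 among them, 3 were highest in FOXO3 KO 2, beside 10.9% of all tested genes. The others were Slc7a2 and Nos2. Slc7a2, which encodes a cationic amino acid transporter that IL-4 raises in macrophages, was at 106, 51.1 and 101 CPM in WT and at 69.8, 186 and 78.5 CPM in FOXO3 KO. Nos2, the inducible nitric oxide synthase of classical activation, was at 0.360, 0.247 and 0.0839 CPM in WT and at 0.496, 1.82 and 0.450 CPM in FOXO3 KO. All FOXO3 KO values of Nos2 lay above all WT values, as for 7% of all tested genes. Its log2 fold change was 1.98 ± 0.77, with an unadjusted p of 0.0404 that did not hold after adjustment (edgeR FDR = 0.839). Nos2 was under 0.5 CPM in 5 of 6 libraries. At 13, 7 and 3 counts in WT and 14, 50 and 15 in FOXO3 KO, it passed the filter mainly through the group where it was higher. Without FOXO3 KO 2 the log2 fold change of Nos2 was 1.03 (unadjusted p = 0.159), without WT 3 it was 1.57 (unadjusted p = 0.0815), and without both it was 0.62. Nos2 alone of the 10 had an unadjusted p under 0.05, beside 4.04% of all tested genes higher and 1.65% lower. None of the 10 was called, as over all tested genes (0%).

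Chil3 and Chil4 encode the chitinase-like proteins Ym1 and Ym2, secreted lectins without chitinase activity, from neighbouring genes on the minus strand of chromosome 3 (Chil3 at chr3:106147554-106167564 and Chil4 at chr3:106201490-106219507). The promoter sequences are shown because the genes are near-copies of each other and were detected at very different levels. The 250 bases before each start in RefSeq (GRCm38.p6, minus strand, chr3:106167565-106167814 and chr3:106219480-106219729) are printed 5′ to 3′, and capitals mark a TTCNNNGAA element, the spacing that STAT factors other than STAT6 usually prefer.
Chil3: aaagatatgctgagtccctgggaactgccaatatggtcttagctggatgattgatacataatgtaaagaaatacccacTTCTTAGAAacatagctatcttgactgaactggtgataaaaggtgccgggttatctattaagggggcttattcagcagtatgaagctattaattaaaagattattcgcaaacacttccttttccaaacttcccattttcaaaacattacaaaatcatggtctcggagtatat
Chil4: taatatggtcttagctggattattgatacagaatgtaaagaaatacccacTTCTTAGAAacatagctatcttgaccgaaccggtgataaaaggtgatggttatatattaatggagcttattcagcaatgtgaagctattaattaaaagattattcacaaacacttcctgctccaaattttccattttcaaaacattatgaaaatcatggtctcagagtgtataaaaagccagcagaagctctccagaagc
In windows of 300 bases that run on to 50 bases after the start, 251 of 273 aligned positions were identical (91.9%), and both hold the element TTCTTAGAA, 172 and 200 bases before the RefSeq start. The gene position of Chil4 above, from GENCODE, reaches into its printed window, so this distance depends on the start used. For Chil3 the gene position and the window adjoin.

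Chil3 was at 2205, 3473 and 846 counts in WT and at 2102, 1587 and 2103 counts in FOXO3 KO, while Chil4 was at 0, 1 and 0 counts in WT and at 1, 1 and 0 counts in FOXO3 KO. Every library thus held Chil3 and was under the floor of 3 counts for Chil4, for which no fold change is given. The longest transcripts of both genes are 1539 bases long and 94.2% identical, and 30.6% of the 31-base words of Chil3 transcripts also occur in those of Chil4. A Chil4 transcript can therefore be told from a Chil3 transcript by most of its words, and how the authors' counting shared the remainder is not given in the sources used here.

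On the CPM scale Chil3 was at 61.1, 123 and 23.7 in WT and at 74.5, 57.9 and 63.1 in FOXO3 KO. The highest and the lowest libraries were both WT, and the FOXO3 KO values lay between them. The log2 fold change was -0.08 ± 0.54 (edgeR FDR = 0.978), -0.48 without WT 3 and -0.01 without FOXO3 KO 2, and its interval as a fold change ran from 0.382 to 2.33. Among the other chitinase family genes, Chid1 was tested and not called (log2 fold change 0.12, edgeR FDR = 0.902; -0.04 without WT 3 and 0.18 without FOXO3 KO 2). Chil1, a chitinase-like gene that neutrophils and activated macrophages are known to express, was at 1, 9 and 1 counts in WT and at 117, 8 and 97 counts in FOXO3 KO, and it did not pass the filter over all 6 libraries. Without FOXO3 KO 2 it passed, with a log2 fold change of 4.87 ± 0.99 that was not called (edgeR FDR = 0.790), and without WT 3 it passed with 3.90 and was not called. Chil1 passed in these fits only through the FOXO3 KO libraries where it was high, so neither size is support for a difference. The 2 high libraries of Chil1 were those with Foxo3 below 5 CPM, and they were also the highest for the summed level of 12 neutrophil markers, at 481 and 407 CPM against 134 to 214 CPM in the others. Of these 12 neutrophil markers, 7 were tested, and 7 of 7 were higher in FOXO3 KO. At an unadjusted p under 0.05, 3 were higher and 0 lower, beside 4.04% and 1.65% of all tested genes. The granule genes Camp and Elane were the only 2 of the 12 at 3 counts or fewer in every library. The part of neutrophils in Chil1 was not tested.

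Retnla (chr16:48842551-48844461, plus strand) encodes resistin-like molecule alpha (FIZZ1), a secreted protein of tissue repair and a classic STAT6 target. The sequence before its RefSeq start is shown because it carries the spacing that STAT6 prefers, TTCNNNNGAA, in capitals below (RefSeq, GRCm38.p6, plus strand, chr16:48842359-48842608, 5′ to 3′). The gene position above, from GENCODE, begins inside this window.
Retnla: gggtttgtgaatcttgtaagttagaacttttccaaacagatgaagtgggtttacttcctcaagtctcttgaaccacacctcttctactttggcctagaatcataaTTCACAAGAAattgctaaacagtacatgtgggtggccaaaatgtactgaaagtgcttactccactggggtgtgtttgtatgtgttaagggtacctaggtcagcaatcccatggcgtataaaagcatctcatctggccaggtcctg
Retnla was at 185, 123 and 233 CPM in WT and at 99.7, 98.7 and 169 CPM in FOXO3 KO. FOXO3 KO 1 and FOXO3 KO 2 lay below all WT libraries, FOXO3 KO 3 lay between WT 2 and WT 1, and in each group replicate 3 was highest. Retnla had a log2 fold change of -0.56 ± 0.31 (edgeR FDR = 0.843), and the interval of the fold change ran from 0.403 to 1.15. The exact two-sided permutation test of log2(CPM + 0.5) gave p = 0.20, where 3 against 3 libraries allow no p below 0.10. Its log2 fold change was -0.32 without WT 3 and -0.42 without FOXO3 KO 2. Retnlg, the family member known from neutrophils and bone marrow, was at 3.47 CPM in WT 3 and between 17.0 and 21.7 CPM in the other 5 libraries, opposite to Retnla in that library. Retn and Retnlb were at 5 counts or fewer in every library.

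Mgl2 and Clec10a are neighbouring genes on the plus strand of chromosome 11 (chr11:70130329-70137550 and chr11:70156197-70170834) for galactose-type lectins, which bind terminal galactose and N-acetylgalactosamine on glycoproteins. Mgl2, which encodes CD301b, was at 26.7, 18.7 and 27.9 CPM in WT and at 17.3, 26.6 and 31 CPM in FOXO3 KO. Clec10a, which encodes CD301a, was at 109, 88.6 and 50.4 CPM in WT and at 79.3, 75.1 and 90.0 CPM in FOXO3 KO. Both pairs of groups overlapped, and WT 3 was lowest for Clec10a but second highest for Mgl2.

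The log2 fold changes were 0.03 ± 0.26 for Mgl2 and -0.02 ± 0.28 for Clec10a (edgeR FDR = 0.982 and 0.988), with intervals of the fold change of 0.663 to 1.58 and 0.618 to 1.57. Without WT 3 they were 0.15 and -0.27, and without FOXO3 KO 2 they were -0.01 and 0.03, so that the sign was not fixed for either gene. Of their 31-base words, 20.3% of those of Mgl2 occur in Clec10a, which makes the split of reads between the lectins dependent on the counting.

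Pdcd1lg2 (chr19:29410919-29471161, plus strand) encodes PD-L2, a ligand of the inhibitory receptor PD-1 on T cells. Its upstream sequence, shown as the other one with the STAT6 spacing (in capitals, RefSeq, GRCm38.p6, plus strand, chr19:29410669-29410918, 5′ to 3′), holds the element 82 bases before the RefSeq start. That of Retnla lies 145 bases before the RefSeq start of Retnla.
Pdcd1lg2: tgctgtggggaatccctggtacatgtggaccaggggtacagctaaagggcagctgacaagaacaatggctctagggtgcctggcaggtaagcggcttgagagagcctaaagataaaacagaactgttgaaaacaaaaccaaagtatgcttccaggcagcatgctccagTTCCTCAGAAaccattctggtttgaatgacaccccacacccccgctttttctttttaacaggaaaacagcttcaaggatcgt
Pdcd1lg2 was the only gene of the 9 whose groups did not overlap, with all FOXO3 KO libraries below all WT libraries. It was at 36, 22 and 172 counts in WT and at 11, 19 and 25 counts in FOXO3 KO, or at 0.997, 0.776 and 4.81 CPM against 0.390, 0.693 and 0.750 CPM. WT 3 was at 5.42 times the mean of WT 1 and WT 2, and the gap between the lowest WT and the highest FOXO3 KO library was 0.776 against 0.750 CPM. Of all tested genes, 5.36% lay below all WT libraries in the same way, and 7% lay above all WT libraries, where 0 of the 9 genes did.

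The log2 fold change of Pdcd1lg2 was -1.84 ± 0.78, with an unadjusted p of 0.0557 (edgeR FDR = 0.839) and an interval of the fold change from 0.0749 to 1.04, and the exact two-sided permutation p was 0.10, the smallest that 3 against 3 libraries allow. Without WT 3 the log2 fold change shrank to -0.52 ± 0.39 (edgeR FDR = 0.819), and without FOXO3 KO 2 it was -1.93 ± 0.99 (edgeR FDR = 0.994). PD-L2 is also made by dendritic cells and peritoneal B-1 cells. WT 3 was the highest library for summed B cell markers and for the sum of 10 dendritic cell markers, at 232 CPM against 72.2 to 157 CPM. Of the 10 dendritic markers, 8 were higher in FOXO3 KO and 2 lower, with a median log2 fold change of 0.70. At an unadjusted p under 0.05, 4 were higher and 0 lower (edgeR), beside 4.04% and 1.65% of all tested genes. The 8 B cell markers were all lower, with 0 under that p. The part of these cells in the level of Pdcd1lg2 was not tested. Cd274, which encodes the other PD-1 ligand PD-L1, was at 130, 115 and 81.8 CPM in WT and at 106, 160 and 87.9 CPM in FOXO3 KO, with a log2 fold change of 0.12 ± 0.27 (edgeR FDR = 0.929) that turned to -0.04 without WT 3 and -0.16 without FOXO3 KO 2.

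RefSeq promoter windows of 300 bases were matched for 8 of the 10 genes, in 12 windows, and none was matched for Arg1 or Clec10a. On either strand, TTCNNNNGAA occurred in windows of 2 of the 8, Retnla and Pdcd1lg2, and in those of 8.01% of all symbols. TTCNNNGAA occurred in 2 of the 8, Chil3 and Chil4, and in 9.55% of all symbols, and TATAAA in 3 of the 8, Chil3, Chil4 and Retnla, and in 15.7% of all symbols. The FoxO element GTAAACA occurred in 0 of the 8 and in 4.05% of all symbols. These letters describe the windows and say nothing of binding.

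Across the 9 tested genes, WT 3 was the lowest or the highest of the 6 libraries for 8, all but Mgl2. It was so for 74.7% of all tested genes. Both libraries with Xist lay above the other 4 for Il4ra and Mgl2, 2 of the 9, against 16.2% of all tested genes. Without WT 3, the median log2 fold change of the 9 genes moved from 0.02 to -0.27, and without FOXO3 KO 2 it was 0.03. Over all tested genes, the medians of these fits were 0.003 and -0.016. With Xist as a covariate, 1564 of all 15608 tested genes had an unadjusted p under 0.05, against 887 without it. Of the 9, these were Arg1 (0.0230, log2 fold change 0.84), Retnla (0.0138, -0.58) and Pdcd1lg2 (0.0356, -1.46). No gene was called (smallest edgeR FDR among the 9 of 0.428). FOXO3 KO 2 was also left out in a fit chosen after the data were seen. There the log2 fold changes of Arg1, Retnla and Pdcd1lg2 were 0.61, -0.57 and -2.001, again with none of the 9 called (smallest FDR 0.177).

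**Figure D3:**
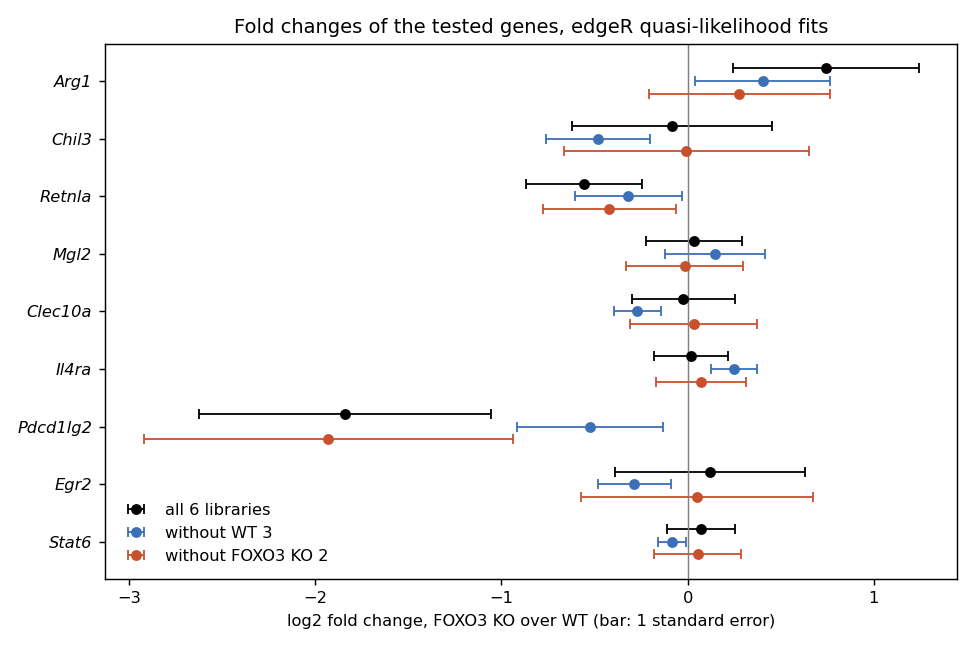
Log2 fold change of FOXO3 KO over WT (x axis) for the 9 tested genes, with bars of 1 SE, over all 6 libraries (black), without WT 3 (blue) and without FOXO3 KO 2 (red). Arg1 shrinks from 0.74 to 0.40 and 0.28 without the respective library, and Pdcd1lg2 moves from -1.84 to -0.52 without WT 3.

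In the wider IL-4 pathway 0 genes were called, as over all tested genes. Of 14 listed ligands, receptors and signalling genes, Il4ra and Stat6 among them, 12 were tested, and 1 was higher and 0 were lower at an unadjusted p under 0.05, beside 4.04% and 1.65% of all tested genes. The median log2 fold change was -0.00, and it was 0.10 without WT 3 and 0.04 without FOXO3 KO 2. Of the ligands, Il4 was at 0.363 to 1.20 CPM and Il13 at 0 or 1 counts, and the decoy receptor Il13ra2 was at 0 counts in every library. The gene with the small p was Il13ra1, which encodes the chain that pairs with the Il4ra product to bind IL-13.

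Il13ra1 was at 43.3, 53.5 and 29.8 CPM in WT and at 63.3, 56.2 and 64.2 CPM in FOXO3 KO. All FOXO3 KO libraries lay above all WT libraries, as for 7% of all tested genes. The log2 fold change of 0.54 ± 0.21 (unadjusted p = 0.0445) was not called (edgeR FDR = 0.839), and was 0.35 without WT 3 and 0.59 without FOXO3 KO 2 (unadjusted p = 0.0250 and 0.0676).

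Of 21 further genes that IL-4 is known to raise in mouse macrophages, 20 were found and 18 tested, 1 was higher and 0 were lower at an unadjusted p under 0.05, beside the same 4.04% and 1.65%, and the median log2 fold change was 0.18 (0.33 without WT 3 and 0.18 without FOXO3 KO 2). Mrc1, which encodes the mannose receptor CD206, was at 579, 573 and 193 CPM in WT and at 486, 464 and 503 CPM in FOXO3 KO. Pparg, the nuclear receptor of lipid handling in these cells, was at 82.3, 104 and 22.9 CPM in WT and at 83.4, 74.2 and 59.5 CPM in FOXO3 KO. Both were lowest in WT 3, as were Arg1, Chil3, Clec10a and Egr2. Other genes of the list went the other way, with Ccl24, Irf4, Myc and Fn1 highest in WT 3. Ccl24 was at 53.3 CPM in WT 3 and at 4.98 to 7.59 CPM in the others. WT 3 was the lowest or the highest library for 15 of the 18 tested genes of the list, beside 74.7% of all tested genes. Alox15, a lipoxygenase of resident peritoneal macrophages and eosinophils, was at 31.4, 18.9 and 1888 CPM in WT and at 32.8, 61.2 and 72.6 CPM in FOXO3 KO. The summed level of 7 eosinophil markers, Alox15 among them, was 1981 CPM in WT 3 and 70.3 to 168 CPM in the others. Alox15 alone made up 1888 CPM of the sum in WT 3, so that this sum largely repeats Alox15 itself. The eosinophil peroxidase gene Epx was the only 1 of the 7 at or under the floor of 3 counts in every library. The part of eosinophils in the level of Alox15 was not tested.

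Among the further genes that IL-4 is known to raise, the gene with the small p was Ch25h, cholesterol 25-hydroxylase. It was at 3, 2 and 0 counts in WT and at 10, 12 and 14 counts in FOXO3 KO. All FOXO3 KO libraries lay above all WT libraries, as for 7% of all tested genes, with WT at or under the floor of 3 counts. The gene was not called (unadjusted p = 0.00536, edgeR FDR = 0.714). Ch25h passed the filter only through the FOXO3 KO group where it was high. Its small p, and the count of 1 gene that rests on it, are therefore no support for a difference. The log2 fold change of Ch25h was 2.91 ± 0.70, and it was 2.33 without WT 3 and 2.86 without FOXO3 KO 2.

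**Figure D4:**
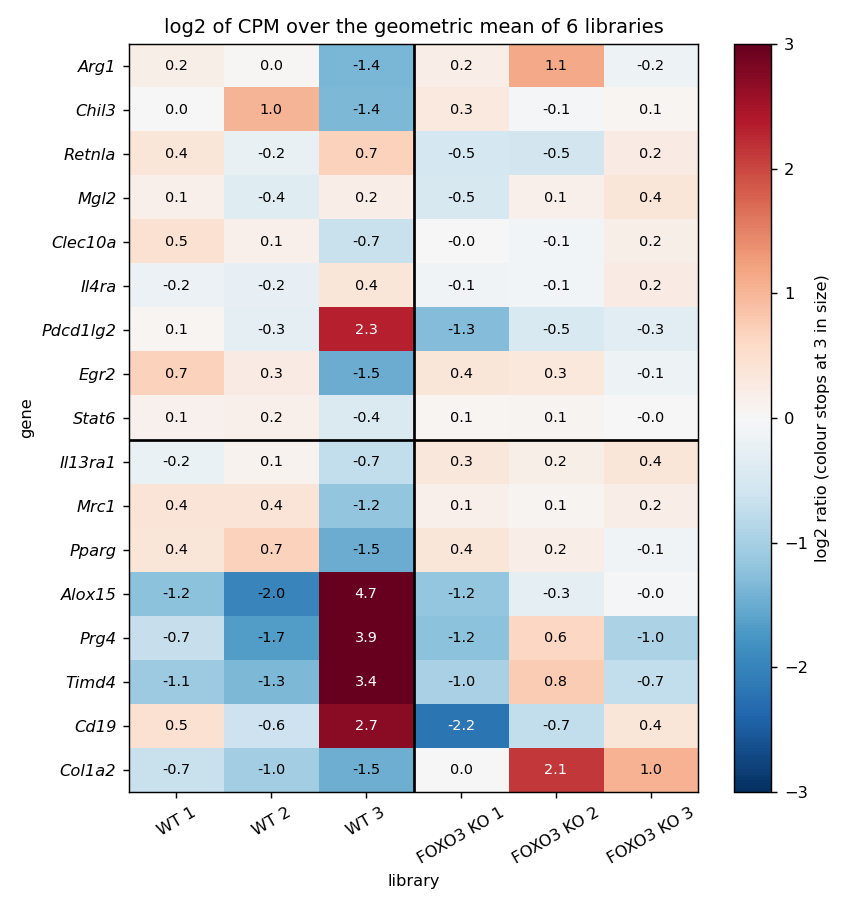
Log2 ratio of CPM to the geometric mean of the 6 libraries (colour and numbers, colour stopping at 3 in size) for the 9 tested genes (upper block) and 8 genes chosen after their values were seen (lower block), in the 3 WT and 3 FOXO3 KO libraries (columns). The WT 3 column holds -1.4 for Arg1 and 2.3 for Pdcd1lg2, beside 4.7 for Alox15 and 3.4 for the resident macrophage marker Timd4.

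Genes of classical activation by LPS and interferon gamma, the program usually set against the alternative one, were listed for comparison. Of 20, 19 were tested, 5 were higher in FOXO3 KO and 0 lower at an unadjusted p under 0.05, beside 4.04% and 1.65% of all tested genes, and 0 were called. The 5 were Nos2, Tnf, Il1b, Cxcl10 and Ptgs2, of which Nos2 passed the filter mainly through the FOXO3 KO group. Nos2 and Cxcl10 were no longer under 0.05 without FOXO3 KO 2 (unadjusted p = 0.159 and 0.122) or without WT 3 (0.0815 and 0.0670), and the other 3 were under 0.05 in both fits. The median log2 fold change of the list was 0.25, with 0.67 without WT 3 and 0.10 without FOXO3 KO 2. Il1b, the cytokine IL-1 beta, was at 4.54, 7.34 and 3.58 CPM in WT and at 29.1, 8.76 and 26.7 CPM in FOXO3 KO, where the FOXO3 KO library nearest to WT was the one with Foxo3 at the WT level. Its log2 fold change was 2.06 ± 0.51 (unadjusted p = 0.00626, edgeR FDR = 0.714), and it was 1.88 without WT 3 and 2.44 without FOXO3 KO 2. Tnf was at 5.01, 4.59 and 3.41 CPM in WT and at 7.51, 8.36 and 6.72 CPM in FOXO3 KO, with a log2 fold change of 0.79 ± 0.22 (edgeR FDR = 0.714), and 0.66 without WT 3 and 0.71 without FOXO3 KO 2. Unlike Il1b, 7 of the 19 tested classical genes were highest in FOXO3 KO 2, Tnf, Nos2 and Cxcl10 among them. Of all tested genes, 10.9% were highest in that library. The neutrophil markers S100a8 and S100a9 were highest in the same libraries as Il1b, FOXO3 KO 1 and FOXO3 KO 3, and 7 of 7 tested mesothelial and fibroblast markers were higher in FOXO3 KO at an unadjusted p under 0.05, with a summed level of 76.3, 337 and 149 CPM against at most 50.3 CPM in WT. The part of these cells in the levels of the classical genes was not tested.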

How the data were processed

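The 3 WT and 3 FOXO3 KO libraries of peritoneal cells were sequenced with paired reads of 76 bp. The authors deposited 1 table of estimated counts per gene symbol, without normalization, of which 81.4% of values lay within 0.01 of a whole number. The submitters' processing notes name STAR 2.6.1d, kallisto 0.46.0, DESeq2 and mm10, with no role or order. Such estimates share reads among similar transcripts, so near-copies (Chil3 and Chil4, Mgl2 and Clec10a) depend on that step.

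Counts were rounded and fitted over all genes in edgeR 4.0.16 (R 4.3.3) with filterByExpr, TMM, and the quasi-likelihood test (glmQLFit, glmQLFTest), with Benjamini-Hochberg adjustment. Groups followed the labels. Standard errors were the absolute log2 fold change divided by the root of the F statistic. Single genes were also tested by exact permutation of log2(CPM + 0.5). The code of the fits was checked on simulated counts in which no library stood apart, and no result here rests on that check. Alternatives were the likelihood ratio test, DESeq2 1.42.0, limma-voom (limma 3.58.1), other scaling factors, no filter and a filter of 10 counts in 3 libraries, pseudocounts of 0.5 and 2, a replicate block, Xist as a covariate, and libraries left out. Gene positions and exon lengths came from GENCODE M21 (GRCm38), and promoter windows from RefSeq (GRCm38.p6). Words of 31 bases were compared, the default word length of kallisto.

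The genes and lists were chosen with earlier results of these data known, and support nothing as independent evidence. Named were all 10 genes, Foxo3, and genes of the lists that share a family with one of the 10, that had an unadjusted p under 0.05 without overlap, or on which a count turned. Mrc1, Pparg, Alox15, Slc7a2, Ccl24, Irf4, Myc, Fn1, Timd4 and the other genes of the lower block of the library plot were chosen after their values were seen. Libraries of a group differed by more than counting noise (chi-square per degree of freedom of at least 14.3), so all were kept as separate samples. The smallest value of any pair, 13.1, was that of WT 1 and FOXO3 KO 2.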

Additional observations from a re-analysis of the deposited data

How the results depend on the processing

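None of the alternative activation genes was called under any of the 20 alternatives with a test, 3 of which were chosen after the data were seen (Xist as a covariate without FOXO3 KO 2, and DESeq2 without FOXO3 KO 2 or without WT 3). The count over all genes was 0 with edgeR's quasi-likelihood test and with each library left out (0 to 0). It was 109 with the likelihood ratio test, 167 with DESeq2, 4 without both WT 3 and FOXO3 KO 2, 11 with the Xist covariate without FOXO3 KO 2, 107 with DESeq2 without FOXO3 KO 2 and 164 with DESeq2 without WT 3. The cause was not tested.

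The labels do not say whether same-numbered samples were paired. Deviations of same-numbered libraries from their group means correlated at 0.34, -0.06 and 0.57, which does not settle it. With the replicate block 0 genes were called, and 2 of the 9 had an unadjusted p under 0.05, against 0 without it. Over all 15608 tested genes, 1033 did so with the block and 887 without it.

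Retnla and Pdcd1lg2 kept a negative log2 fold change under every alternative run. Without both WT 3 and FOXO3 KO 2, these shrank to -0.20 ± 0.30 and -0.63 ± 0.45 (edgeR FDR = 0.944 and 0.825). Arg1 turned to -0.067 without both libraries (0.28 to 1.003 with 1 left out). Chil3 turned to 0.20 with limma-voom, 0.21 with the replicate block, 0.13 with the Xist covariate, 0.47 with that covariate without FOXO3 KO 2, and 0.20 and 0.19 at pseudocounts of 0.5 and 2 (-0.48 to 0.62 with 1 left out). Clec10a turned to 0.040 with limma-voom and the block, 0.037 with the Xist covariate, 0.044 and 0.042 at those pseudocounts, 0.20 with the covariate without FOXO3 KO 2 and 0.034 with DESeq2 without it (-0.27 to 0.23). Mgl2 turned to -0.16 and -0.0073 in those last fits (-0.15 to 0.24), and Il4ra to -0.020 without scaling factors (-0.098 to 0.25). Egr2 turned to -0.36 without both libraries and -0.30 with DESeq2 without WT 3 (-0.29 to 0.57), and Stat6 to -0.11 and -0.10 (-0.083 to 0.18).

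Median log2 fold changes of lists, each taken over the genes that a fit tested, moved as follows. In the main fit, the IL-4 pathway was at -0.00085, the resistin family at -0.058 and the STAT family at 0.019. Macrophage markers were there at 0.13, eosinophil -0.70, mast cell -0.75, B cell -1.87, T cell -0.97, mesothelial 2.22 and dendritic 0.70. The IL-4 pathway was at 0.17 with DESeq2 without WT 3, the resistin family at 0.36 with DESeq2 without FOXO3 KO 2, and the STAT family at -0.17 with the Xist covariate without FOXO3 KO 2 and 0.19 with DESeq2 without WT 3 (-0.091 to 0.21). The classical genes were at 0.059 to 0.67 with 1 library left out, the lowest without WT 2 and the highest without WT 3. Without both libraries, macrophage markers were at -0.017, eosinophil -0.0041, mast cell 0.45, B cell -0.42, T cell 0.25 and mesothelial 1.46. With DESeq2 without WT 3, macrophage markers were at 0.024, eosinophil -0.040, B cell -0.51 and T cell 0.13. Eosinophil markers were also at 0.33 with DESeq2, -0.15 with limma-voom, 0.36 without a filter, -0.079 with the block and -0.056 with the Xist covariate. DESeq2 and the fit without a filter tested 31439 genes over all 6 libraries, against 15608, so genes near the floor entered those medians. In the main fit, 4 of the 7 eosinophil markers and 2 of the 4 resistin genes were tested. In fits that tested more genes, a change of method and a change of genes cannot be told apart. Mesothelial markers were at 1.42 with the covariate and 1.45 with DESeq2, both without FOXO3 KO 2, and at 1.38 at a pseudocount of 2, where dendritic markers were at 0.46. With 1 library left out, the ranges were -1.16 to -0.043 for eosinophil, -1.15 to 0.090 for mast cell, -2.58 to -0.49 for B cell, -1.43 to 0.15 for T cell and 1.51 to 2.57 for mesothelial markers.

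Depth limits Chil4, at 1 count or fewer, and Pdcd1lg2, at 11 to 172 counts. With 3 libraries a group, of which WT 3 stands apart and FOXO3 KO 2 holds Foxo3, intervals of the fold change leave room for changes of 1.5-fold in 7 of the 9 tested genes.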
